A study of Mus musculus with 6 samples.

Results

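Ribosome biogenesis is the making of ribosomes in the nucleolus, and 46 genes that carry it out were followed here in cultured mouse neural progenitor cells. The 46 were chosen by name as factors of ribosomal RNA synthesis, RNA modification and subunit assembly, with earlier results of these data known. All 46 are among the 22057 genes of the deposited table. The PDGFA group holds cells of 3 mice, numbered 62, 68 and 69, after 4 days in stem cell medium with platelet-derived growth factor A at 20 ug/ml as the labels write it. The EF group, which the series design calls the control, holds cells of the same 3 mice after 4 days in the same medium given EGF and FGF, the epidermal and fibroblast growth factors, together with heparin. All 6 libraries carry the p53-null genotype, so no library here has normal p53, and the labels give neither the deleted part of Trp53 nor the age of the mice. The media differ by the factors taken away as well as by the one added, so each value below compares the media.

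In the nucleolus, RNA polymerase I copies the ribosomal RNA genes into a long precursor. Small nucleolar ribonucleoproteins (snoRNPs) modify that precursor, those with box C/D RNAs by methylation and those with box H/ACA RNAs by turning uridine into pseudouridine. A first large assembly then folds and cuts the part that becomes the small subunit, and a separate set of helicases, GTPases and scaffold proteins builds the large subunit. Dividing cells make ribosomes at a high rate, and transcription factors of the MYC family, which bind the E-box sequence, are known activators of many of these genes.

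In PDGFA, 27 of the 46 genes were lower than in EF, none was higher, and 19 did not pass the test. Over all 17068 genes tested, 18.0% were called lower and 21.8% higher (limma, adjusted p under 0.05). These are bulk cultures, in which fewer cells of a type and less RNA per cell cannot be told apart, and all 12 markers of dividing cells were lower in PDGFA too. The median log2 fold change of the 46 genes was -0.75, against -0.01 over all genes tested. The fall was shallow: the largest, of Rrp1b, was -1.58, and the mean in PDGFA was under 50% of that in EF for 9 of the 46. At an unadjusted p under 0.05, 31 were lower and 0 higher, and edgeR and DESeq2 on the recovered reads likewise called 0 higher. edgeR called 30 lower, where it called 19.1% of all genes lower and 21.0% higher, and DESeq2 called 31 lower, where it called 21.9% of all genes lower and 23.1% higher. All 46 passed the filter on low values, with group means from 355.8 (Npm3 in PDGFA) to 18423 (Ncl in EF) normalized counts.

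The 46 genes summed to 96815, 89028 and 74299 normalized counts in the PDGFA libraries of mice 62, 68 and 69, against 120340 in EF 62, 116372 in EF 68 and 197172 in EF 69. The lowest EF library thus lay above the highest PDGFA library, and mouse 69 supplied both the highest EF sum and the lowest PDGFA sum. As a share of all reads, the genes took 0.258% ± 0.0365 in PDGFA and 0.444% ± 0.111 in EF (SD, n = 3 each). Values of 3 libraries are given below in the order of mice 62, 68 and 69, as normalized counts, and every fold change is PDGFA over EF on the scale log2(normalized count + 1). Where nothing else is said, adjusted p-values are from limma over all 17068 genes.

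**Figure D1:**
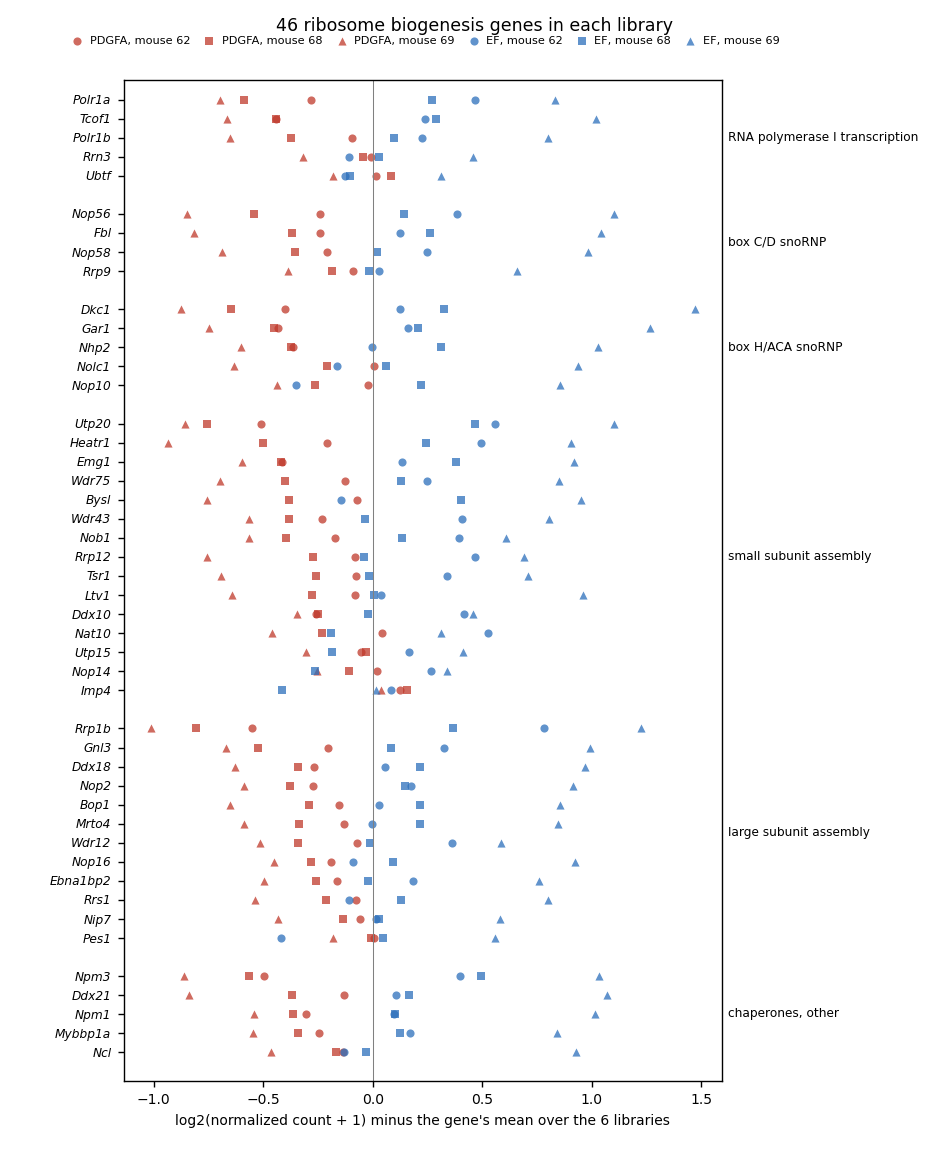
Level of each of the 46 genes in each library, as log2(normalized count + 1) minus the gene's mean over the 6 libraries (horizontal axis), with genes grouped by role and ordered by fold change; red marks PDGFA, blue EF, and the symbol the mouse. EF 69 (blue triangles) is the highest library for 44 genes and PDGFA 69 (red triangles) the lowest for 43. Of all 17068 genes tested, EF 69 is highest for 30.2%, and a PDGFA library of any mouse is lowest for 7119. The share lowest in PDGFA 69 alone was not counted.

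For most of these genes, mouse 69 held the extreme value in both media. EF 69 was the highest of the 6 libraries for 44 of the 46 genes, against 30.2% of all genes tested, and PDGFA 69 was the lowest for 43. For 7119 of all 17068 genes tested, the lowest library was a PDGFA library of any mouse. The share of all genes lowest in PDGFA 69 alone was not counted, so the 43 has no like value beside it. The median of EF 69 over the mean of EF 62 and EF 68 was 0.69 on the log2 scale for the 46 genes and 0.06 for all genes tested. Within mouse 69 the median difference between the media was -1.48, with 45 of 46 genes lower. Within mouse 62 it was -0.37, with 38 lower, and within mouse 68 it was -0.47, with 42 lower. Over all genes tested the same medians lay between 0.01 and 0.04. The share of all genes lower in PDGFA was 49.7% within mouse 69, 48.5% within mouse 62 and 48.9% within mouse 68. Without both libraries of mouse 69, the median log2 fold change of the 46 genes was -0.39 and 8 were called lower, where 12.2% of all genes were. Without EF 69 alone it was -0.53 with 20 called lower, where 17.1% of all genes were. Because mice 62, 68 and 69 gave both groups, values of 1 mouse are not independent of each other.

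**Figure D2:**
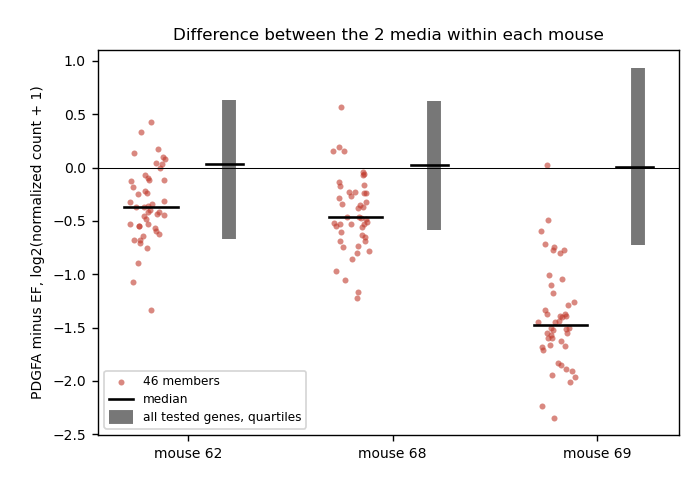
Difference between the media within each mouse, as PDGFA minus EF in log2(normalized count + 1) (vertical axis); red points are the 46 genes, black lines medians and grey bars the quartiles of all genes tested. The 3 medians of the 46 genes are -0.37, -0.47 and -1.48 for mice 62, 68 and 69.

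All 3 PDGFA libraries lay below all 3 EF libraries for 35 of the 46 genes, which was so for 26.3% of all genes tested. For none of the 46 did they all lie above, which was so for 29.2% of all genes. The difference had the same direction, lower in PDGFA, in all 3 mice for 36 of the 46 genes, against 30.9% of all genes, and these included each of the 27 called genes. Of the 19 genes that were not called, 9 were lower in all 3 mice and 8 had no overlap between the groups. The EF libraries were the more variable group for these genes, with a median SD of 0.20 in PDGFA and 0.42 in EF on the log2 scale; over all genes tested it was 0.17 and 0.38.

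**Figure D3:**
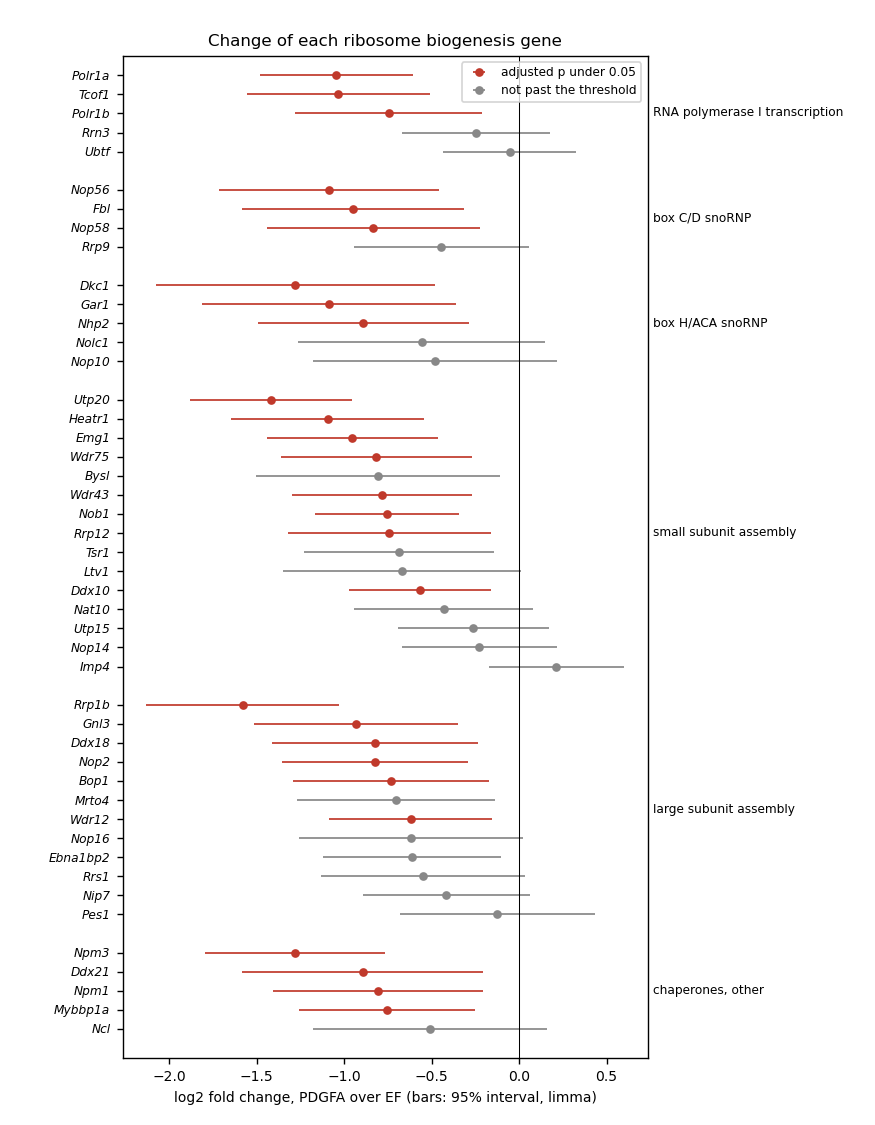
Log2 fold change of each of the 46 genes, PDGFA over EF (horizontal axis), with its 95% interval from limma as a bar; genes are grouped by role, red for adjusted p under 0.05 and grey for the rest. The 27 red genes lie between -0.57 (Ddx10) and -1.58 (Rrp1b), and Imp4 at 0.21 is the one gene above 0.

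Among the genes of RNA polymerase I transcription, 3 of 5 fell and 2 were not called. Polr1a, the largest subunit of the polymerase (chromosome 6, 71909053 to 71984935), read 2554, 2072 and 1918 in PDGFA libraries, against 4299, 3748 and 5530.5 in EF libraries. The groups did not overlap, the PDGFA mean was 48.2% of the EF mean, and the log2 fold change was -1.04 (adjusted p = 0.004, SE 0.19). Tcof1, which encodes treacle, a nucleolar cofactor of this transcription whose human gene is mutated in Treacher Collins syndrome, read 1472, 1470.5 and 1259 in PDGFA libraries, against 2358, 2444 and 4055 in EF libraries. Its groups did not overlap either, with a log2 fold change of -1.03 (adjusted p = 0.00908, SE 0.22). Polr1b, the partner subunit in the active centre, read 1281, 1055 and 869 in PDGFA libraries, against 1595, 1463 and 2378 in EF libraries, a log2 fold change of -0.75 (adjusted p = 0.0361, SE 0.23). That call was lost without EF 69, PDGFA 68 or PDGFA 69 (adjusted p 0.0668 to 0.126 and 0.0611 with the mouse as a block).

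The other 2 genes of this group, Ubtf and Rrn3, did not pass the test. Ubtf, which holds the ribosomal RNA genes open, read 5344, 5611 and 4671 in PDGFA libraries, against 4854, 4927 and 6563 in EF libraries. PDGFA 62 and PDGFA 68 were above EF 62 and EF 68, while EF 69 was the highest library, and the log2 fold change was -0.05 (95% interval -0.44 to 0.33, adjusted p = 0.813). Rrn3, which links the polymerase to the promoter and answers growth signals, read 2985, 2911 and 2415 in PDGFA libraries, against 2785, 3065 and 4124 in EF libraries. Its groups overlapped, and its log2 fold change was -0.25 (95% interval -0.67 to 0.17, adjusted p = 0.311). The interval of Rrn3 reaches -0.67, so a change as large as that of some called genes is within it. The difference between Ubtf and Polr1a was not tested.

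Of the 4 genes of box C/D snoRNPs, 3 fell. Nop56, a scaffold protein of these particles, read 2530.1, 2055 and 1658 in PDGFA libraries, against 3904, 3303 and 6402 in EF libraries. Its PDGFA mean was 45.9% of the EF mean, with a log2 fold change of -1.09 (adjusted p = 0.0161, SE 0.27), and the call was lost without PDGFA 68 or PDGFA 69 (adjusted p 0.0533 to 0.0647). Fbl, fibrillarin, the methyltransferase of the particle, read 1071, 981 and 720.3 in PDGFA libraries, against 1382, 1521 and 2609 in EF libraries, with no overlap. The log2 fold change of Fbl was -0.95 (adjusted p = 0.0275, SE 0.27), not called without PDGFA 68 or PDGFA 69 (adjusted p 0.0681 to 0.0988). Nop58, the scaffold paired with Nop56, read 2124, 1916 and 1524 in PDGFA libraries, against 2915, 2484 and 4853 in EF libraries. It fell with a log2 fold change of -0.83 (adjusted p = 0.0386, SE 0.26), and lost its call without EF 69, PDGFA 62, PDGFA 68 or PDGFA 69 (adjusted p 0.0512 to 0.132 and 0.0566 with the mouse as a block). Rrp9, a protein of the particle that helps cut the precursor, read 829, 775 and 675 in PDGFA libraries, against 900.2, 874 and 1393 in EF libraries. Rrp9 had no overlap between the groups but did not pass, at -0.45 (95% interval -0.95 to 0.05, adjusted p = 0.138).

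Of the genes of box H/ACA snoRNPs, 3 of 5 fell. Dkc1, dyskerin, the enzyme that makes pseudouridine, read 1066, 899 and 768 in PDGFA libraries, against 1536, 1762 and 3900.5 in EF libraries. EF 69 held far more than EF 62 and EF 68, all PDGFA libraries lay below all EF libraries, and the log2 fold change was -1.28 (adjusted p = 0.0217, SE 0.34). The call of Dkc1 was lost without PDGFA 68 or PDGFA 69 (adjusted p 0.0645 to 0.0798). Gar1, a partner of dyskerin, read 390.4, 385 and 313 in PDGFA libraries, against 589, 607 and 1267 in EF libraries, a log2 fold change of -1.09 (adjusted p = 0.0277, SE 0.31). Nhp2, another partner, read 1204, 1195 and 1021 in PDGFA libraries, against 1545, 1923 and 3162 in EF libraries, a log2 fold change of -0.89 (adjusted p = 0.029, SE 0.26). Gar1 was not called without PDGFA 62, PDGFA 68 or PDGFA 69 (adjusted p 0.0643 to 0.0957), and Nhp2 not without EF 68, PDGFA 62, PDGFA 68 or PDGFA 69 (adjusted p 0.053 to 0.0993). The remaining core partner, Nop10, read 787, 664 and 589 in PDGFA libraries, against 626, 929 and 1442 in EF libraries, so that PDGFA 62 was above EF 62. Its log2 fold change was -0.48 (95% interval -1.18 to 0.22, adjusted p = 0.236), and it was called lower without EF 62 (adjusted p 0.034). Nolc1, a carrier of snoRNPs in the nucleolus, read 3119.9, 2692 and 2008 in PDGFA libraries, against 2775, 3248 and 5960.0 in EF libraries. PDGFA 62 was again above EF 62, and Nolc1 did not pass, at -0.56 (95% interval -1.26 to 0.15, adjusted p = 0.181).

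Small subunit assembly was the largest group, and 8 of its 15 genes fell while 7 were not called. Utp20, a large scaffold of the early assembly (chromosome 10, 88746607 to 88826804), read 1439, 1214 and 1131 in PDGFA libraries, against 3019, 2836 and 4405 in EF libraries. Its highest PDGFA library was far under its lowest EF library, the PDGFA mean was 36.9% of the EF mean, and the log2 fold change was -1.42 (adjusted p = 0.00132, SE 0.20). Heatr1, another large scaffold that also promotes transcription of the ribosomal RNA genes (chromosome 13, 12395027 to 12440289), read 2223, 1816 and 1344 in PDGFA libraries, against 3621, 3038 and 4804 in EF libraries. Its groups did not overlap, with a log2 fold change of -1.09 (adjusted p = 0.00908, SE 0.24). The WD-repeat proteins Wdr43 and Wdr75, which join the same early assembly, both fell. Wdr43 read 2156, 1941 and 1707 in PDGFA libraries, against 3358, 2471 and 4416 in EF libraries, a log2 fold change of -0.79 (adjusted p = 0.026, SE 0.22). Wdr75 read 1467, 1212 and 986 in PDGFA libraries, against 1898, 1752 and 2887 in EF libraries, a log2 fold change of -0.82 (adjusted p = 0.0277, SE 0.23). Wdr43 was not called without PDGFA 62, PDGFA 68 or PDGFA 69 (adjusted p 0.0504 to 0.0947), and Wdr75 not without PDGFA 68 or PDGFA 69 (adjusted p 0.0839 to 0.1).

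The other 4 genes of the small subunit that fell encode enzymes and an export factor. Emg1, a methyltransferase of the small subunit RNA, read 1111, 1107 and 979 in PDGFA libraries, against 1622, 1929 and 2796 in EF libraries, a log2 fold change of -0.95 (adjusted p = 0.00996, SE 0.21). Nob1, the nuclease that makes the last cut of that RNA, read 1261, 1081 and 961 in PDGFA libraries, against 1866, 1559 and 2167 in EF libraries, a log2 fold change of -0.75 (adjusted p = 0.0125, SE 0.18). Both genes had no overlap between groups, and Nob1 lost its call without PDGFA 68 or PDGFA 69 (adjusted p 0.0536 to 0.0555). Rrp12, an export factor, read 999, 877 and 625 in PDGFA libraries, against 1460.4, 1028 and 1708 in EF libraries, a log2 fold change of -0.74 (adjusted p = 0.0482, SE 0.25). Ddx10, an RNA helicase, read 694, 698 and 654 in PDGFA libraries, against 1109.9, 817 and 1140.3 in EF libraries, a log2 fold change of -0.57 (adjusted p = 0.0353, SE 0.17). These 2 calls were the least stable of the group. Rrp12 lost its call without EF 62, EF 69, PDGFA 62, PDGFA 68 or PDGFA 69 (adjusted p 0.0573 to 0.155 and 0.0682 with the mouse as a block), and Ddx10 without EF 62, EF 69, PDGFA 62, PDGFA 68 or PDGFA 69 (adjusted p 0.0566 to 0.111 and 0.0713 with the mouse as a block).

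The 7 genes of the small subunit that did not pass include Imp4, the one positive log2 fold change among the 46. Tsr1, which blocks early joining of the subunits, read 1616, 1422 and 1055 in PDGFA libraries, against 2152, 1683 and 2779 in EF libraries, with no overlap and a log2 fold change of -0.68 (95% interval -1.23 to -0.14, adjusted p = 0.0505). Bysl, bystin, which acts late in assembly, read 1256, 1012 and 780.4 in PDGFA libraries, against 1192, 1747 and 2553 in EF libraries. EF 62 of Bysl lay under PDGFA 62, and its log2 fold change was -0.81 (95% interval -1.50 to -0.11, adjusted p = 0.0655). Ltv1, also a late factor, read 662, 578 and 449 in PDGFA libraries, against 719, 704 and 1363 in EF libraries, at -0.67 (95% interval -1.35 to 0.01, adjusted p = 0.107). Nat10, the RNA acetyltransferase, read 2121, 1755 and 1495 in PDGFA libraries, against 2966, 1803 and 2557 in EF libraries, at -0.43 (95% interval -0.94 to 0.08, adjusted p = 0.157). Tsr1 was called lower without EF 68 (adjusted p 0.0296), Nat10 without EF 68 (adjusted p 0.0438) and Bysl without EF 62 (adjusted p 0.0151). On all 6 libraries, DESeq2 also called Tsr1 (adjusted p 0.0241) and Bysl (adjusted p 0.0238) lower. There edgeR called Tsr1 (adjusted p 0.0455) but not Bysl (adjusted p 0.0532), and neither method called Nat10. Utp15, an early factor needed for transcription as well, read 1317, 1339 and 1106 in PDGFA libraries, against 1535, 1200.2 and 1822 in EF libraries, at -0.26 (95% interval -0.69 to 0.17, adjusted p = 0.299). Nop14 read 1535, 1404 and 1269 in PDGFA libraries, against 1820.5, 1259.9 and 1913 in EF libraries, at -0.23 (95% interval -0.67 to 0.22, adjusted p = 0.377). Imp4, a partner of the snoRNP that guides the first cuts, read 1581, 1614 and 1490.0 in PDGFA libraries, against 1534, 1089 and 1464 in EF libraries, at 0.21 (95% interval -0.17 to 0.60, adjusted p = 0.342). Imp4 was higher in PDGFA in all 3 mice, and PDGFA 69 was under EF 62, so its groups overlapped.

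In large subunit assembly, 6 of 12 genes fell. Rrp1b, a nucleolar protein of large subunit processing (chromosome 17, 32036100 to 32062865), had the largest fall of the 46 genes. It read 1261, 1059 and 917 in PDGFA libraries, against 3186, 2383 and 4331 in EF libraries, so that its PDGFA mean was 32.7% of the EF mean and its log2 fold change -1.58 (adjusted p = 0.00174, SE 0.24). Gnl3, nucleostemin, a GTPase known for its abundance in stem and progenitor cells, read 2027, 1621 and 1465 in PDGFA libraries, against 2923, 2470.2 and 4637 in EF libraries. Gnl3 fell without overlap, with a log2 fold change of -0.93 (adjusted p = 0.0215, SE 0.25), and lost its call without PDGFA 68 or PDGFA 69 (adjusted p 0.0743 to 0.0816). Nop2, a methyltransferase of the large subunit RNA, read 1444, 1343 and 1161 in PDGFA libraries, against 1967, 1929.8 and 3291 in EF libraries, a log2 fold change of -0.82 (adjusted p = 0.0244, SE 0.23). Ddx18, a helicase, read 902, 857 and 704 in PDGFA libraries, against 1131, 1263 and 2129 in EF libraries, a log2 fold change of -0.83 (adjusted p = 0.0351, SE 0.25). Nop2 was not called without PDGFA 62, PDGFA 68 or PDGFA 69 (adjusted p 0.0519 to 0.0893), and Ddx18 not without EF 68, PDGFA 62, PDGFA 68 or PDGFA 69 (adjusted p 0.0507 to 0.119 and 0.0553 with the mouse as a block).

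Bop1, Pes1 and Wdr12 form 1 complex that is needed to mature the large subunit RNA. Bop1 and Wdr12 were called lower and Pes1 was not called. Bop1 read 1979, 1799.9 and 1403 in PDGFA libraries, against 2251, 2561 and 3986 in EF libraries, a log2 fold change of -0.73 (adjusted p = 0.0443, SE 0.24). Wdr12 read 1175, 974 and 863 in PDGFA libraries, against 1588, 1223 and 1851 in EF libraries, a log2 fold change of -0.62 (adjusted p = 0.0417, SE 0.20). Bop1 lost its call without EF 68, EF 69, PDGFA 62, PDGFA 68 or PDGFA 69 (adjusted p 0.0672 to 0.149 and 0.0745 with the mouse as a block), and Wdr12 without EF 62, EF 69, PDGFA 62, PDGFA 68 or PDGFA 69 (adjusted p 0.0528 to 0.141 and 0.063 with the mouse as a block). Pes1 read 2532, 2506 and 2222 in PDGFA libraries, against 1887, 2605 and 3715 in EF libraries, with overlapping groups and a log2 fold change of -0.12 (95% interval -0.68 to 0.43, adjusted p = 0.708). Whether Pes1 differs from its partners was not tested.

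The other 5 genes of the large subunit had negative log2 fold changes and did not pass. Mrto4, which holds the place of a stalk protein, read 1070.2, 926 and 778 in PDGFA libraries, against 1166, 1359 and 2107 in EF libraries, at -0.70 (95% interval -1.27 to -0.14, adjusted p = 0.0527). Ebna1bp2, an early assembly factor, read 1589, 1486 and 1261 in PDGFA libraries, against 2019, 1755 and 3016 in EF libraries, at -0.61 (95% interval -1.12 to -0.11, adjusted p = 0.0578). Mrto4 was called lower without EF 62 (adjusted p 0.0226) and Ebna1bp2 without EF 68 (adjusted p 0.0348). On all 6 libraries, edgeR called Mrto4 (adjusted p 0.0423) and Ebna1bp2 (adjusted p 0.0459) lower. DESeq2 did so too, at adjusted p 0.0204 for Mrto4 and 0.0273 for Ebna1bp2. Nop16 read 497, 466 and 415 in PDGFA libraries, against 533, 605 and 1076 in EF libraries, at -0.62 (95% interval -1.26 to 0.02, adjusted p = 0.113). Rrs1, which helps load a small ribonucleoprotein onto the large subunit, read 1647, 1497 and 1196 in PDGFA libraries, against 1609, 1899 and 3022 in EF libraries, at -0.55 (95% interval -1.13 to 0.04, adjusted p = 0.12). Nop16 was called lower without EF 62 (adjusted p 0.0437), and Rrs1 without EF 62 (adjusted p 0.0435). Nip7, a late-binding factor, read 877, 829.8 and 676 in PDGFA libraries, against 922, 929 and 1364 in EF libraries, at -0.42 (95% interval -0.89 to 0.06, adjusted p = 0.145). Of these 5 genes, Rrs1 had overlapping groups and the other 4 did not.

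Of the 5 genes for nucleolar chaperones and proteins with several roles, 4 fell. Npm3, a relative of nucleophosmin (chromosome 19, 45747734 to 45749591), read 391, 372 and 304 in PDGFA libraries, against 729, 777 and 1130.1 in EF libraries. Its PDGFA mean was 40.5% of the EF mean, the groups did not overlap, and the log2 fold change was -1.28 (adjusted p = 0.00331, SE 0.22). Npm1, nucleophosmin itself, a histone and ribosome chaperone, read 6708, 6432 and 5684 in PDGFA libraries, against 8858, 8884 and 16701 in EF libraries, a log2 fold change of -0.81 (adjusted p = 0.0403, SE 0.26). Mybbp1a, a nucleolar repressor of transcription, read 6770.4, 6336 and 5508 in PDGFA libraries, against 9042, 8750.4 and 14418 in EF libraries, a log2 fold change of -0.76 (adjusted p = 0.0275, SE 0.22). Ddx21, a helicase of the ribosomal RNA genes, read 4474, 3794 and 2737 in PDGFA libraries, against 5277, 5493 and 10302 in EF libraries, a log2 fold change of -0.89 (adjusted p = 0.0461, SE 0.30). The calls were lost for Npm1 without PDGFA 62, PDGFA 68 or PDGFA 69 (adjusted p 0.0863 to 0.128 and 0.0539 with the mouse as a block), for Mybbp1a without PDGFA 62, PDGFA 68 or PDGFA 69 (adjusted p 0.0598 to 0.1) and for Ddx21 without EF 68, EF 69, PDGFA 62, PDGFA 68 or PDGFA 69 (adjusted p 0.0551 to 0.154 and 0.0713 with the mouse as a block). Ncl, nucleolin, the most abundant of the 46 in normalized counts, read 13277, 12978 and 10567 in PDGFA libraries, against 13314, 14272 and 27683 in EF libraries. PDGFA 62 and EF 62 of Ncl were nearly equal and the groups did not overlap, but Ncl did not pass, at -0.51 (95% interval -1.18 to 0.16, adjusted p = 0.197).

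Per length of annotated exons, which allows genes to be set against each other, Npm1 had the highest level of the 46, with a mean of 2354 normalized counts per kb in PDGFA and 4308 in EF. Ncl followed in PDGFA at 1205 per kb, and had 1808 in EF. Nhp2 had 995 per kb in PDGFA and 1928 in EF, and Mybbp1a 1069 in PDGFA and 1850 in EF. Wdr12 had the lowest level, 84.0 per kb in PDGFA and 130.0 in EF. These levels use the union of all annotated exons, which runs long where an annotated transcript keeps introns.

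The call was kept in each of 18 alternative settings by 6 genes, Polr1a, Tcof1, Heatr1, Utp20, Rrp1b and Npm3, and Emg1 was not called only without both libraries of mouse 68. Of the 27 called genes, 20 lost their call when 1 library was left out, and 9 lost it with the mouse as a block, which left 18 called where 15.4% of all genes were called lower. Leaving out 1 library moved none of the 46 fold changes, on a linear scale, by more than 1.5 times. Without PDGFA 68, 7 of the 46 were called lower, at a median of -0.77, where 10.9% of all genes were called lower. Without PDGFA 69, 7 were too, at a median of -0.62, where 12.4% of all genes were. Without PDGFA 62, 14 were, at a median of -0.86, where 12.5% of all genes were. Without both libraries of mouse 68, 8 were, at a median of -0.89, where 7.82% of all genes were. In each of these fits the share of the 46 lay nearer to that of all genes than with all 6 libraries. There it was 58.7%, against 18.0% of all genes.

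**Figure D4:**
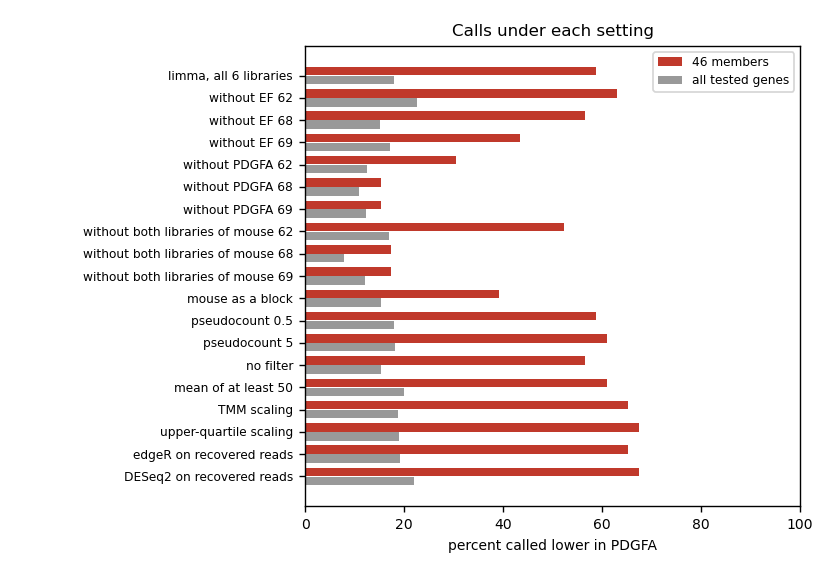
Percent called lower in PDGFA (horizontal axis) among the 46 genes (red) and all tested genes (grey), for the fit to all 6 libraries and each of 18 alternatives (vertical axis). The red bars span 7 to 31 of the 46 genes and are shortest without PDGFA 68 or PDGFA 69. In those 2 fits 10.9% and 12.4% of all genes were called lower.

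Some of these genes share sequence with others, which can move reads between them. Of the words of 50 bases in annotated transcripts, Ddx18 shared 55.9% with transcripts of other genes, Tsr1 29.1%, Npm3 25.6%, Npm1 24.3%, Pes1 23.3%, Fbl 19.7%, Nop56 18.6% and Mrto4 12.3%, and the values of these 8 genes are uncertain for that reason. For Tsr1 the partner is Srr on the opposite strand, which covers 32.3% of the exon bases of Tsr1. Likewise Ccnd3 covers 9.37% of the exon bases of Bysl, and Lpcat3 7.21% of those of Emg1. Strand is not marked by the library kit, and reads from such overlaps cannot be told apart.

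The promoters of these genes were searched, where the RefSeq table held them, for 4 fixed motifs on both strands, in windows from 250 bases before to 50 bases after each RefSeq start site on GRCm38.p6. The motifs were CACGTG (the E-box), CCGGAAGT (ETS factors), GGGCGG (the GC box) and the palindromic NRF1 motif, and no motif contains another. The table held 48 windows for 40 of the 46 genes. The E-box was in 9 of these 48 windows (18.8%), against 7.15% of all 32851 windows. The ETS motif was also in 9 (18.8%), against 3.89%, the GC box in 34 (70.8%), against 35.7%, and the NRF1 motif in 0, against 0.971%. Some genes, such as Ubtf, hold several windows. Counted by gene, the shares were 22.5% against 8.09% for the E-box, 22.5% against 4.31% for ETS and 75% against 38.2% for the GC box. The comparison takes in all 27025 genes with a window, also genes not tested here, so it does not set the 46 against expressed genes alone. Of the 9 genes with an E-box, 4 were called lower, with a median log2 fold change of -0.68, and of the 31 without, 18 were, with a median of -0.75. A match is a description of letters and not a binding site.

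All 10 E-boxes are shown with up to 12 bases on each side, on the strand of the gene, so that genes that fell (Utp20, Nop2, Wdr43 and Mybbp1a) can be set beside genes that did not pass (Tsr1, Ltv1, Rrn3, Pes1 and Imp4); the capitals mark the E-box, and the runs of Utp20 and Mybbp1a end at the edge of their window.
Utp20: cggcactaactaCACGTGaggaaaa
Nop2: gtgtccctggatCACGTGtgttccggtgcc
Wdr43: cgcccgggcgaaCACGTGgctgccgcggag
Mybbp1a: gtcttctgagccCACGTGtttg
Tsr1: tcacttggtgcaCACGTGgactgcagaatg
Ltv1: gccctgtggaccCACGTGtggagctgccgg
Rrn3 upstream site: gagcgccaaggtCACGTGcacacgcctcta
Rrn3 site nearer the start: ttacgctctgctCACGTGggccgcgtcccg
Pes1: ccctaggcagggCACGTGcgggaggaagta
Imp4: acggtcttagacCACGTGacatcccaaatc
They lie at chr10:88826765-88826789 (-) for Utp20, chr6:125131811-125131840 (+) for Nop2, chr17:71616220-71616249 (+) for Wdr43, chr11:72441355-72441376 (+) for Mybbp1a, chr11:74898092-74898121 (+) for Tsr1, chr10:13193092-13193121 (-) for Ltv1, chr16:13780472-13780501 (+) for Rrn3, chr16:13780639-13780668 (+) for Rrn3, chr11:3963965-3963994 (+) for Pes1 and chr1:34439696-34439725 (+) for Imp4. The E-boxes of Nop2, Imp4 and both of Rrn3 lie before the start site, at -60, -121, -215 and -48 counted from it, and the other 6 lie after it.

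The whole window of Nop2 is shown as the called gene whose E-box lies before the start site; it spans chr6:125131633-125131932 on the + strand, and capitals mark the GC box and then the E-box.
Nop2 promoter: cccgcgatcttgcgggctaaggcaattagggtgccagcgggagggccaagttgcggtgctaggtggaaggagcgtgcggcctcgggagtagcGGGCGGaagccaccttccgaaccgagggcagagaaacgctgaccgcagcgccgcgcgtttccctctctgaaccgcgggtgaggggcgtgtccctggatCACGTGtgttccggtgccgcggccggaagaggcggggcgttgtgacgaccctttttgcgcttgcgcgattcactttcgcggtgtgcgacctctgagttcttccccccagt

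Other genes of the same pathway were listed by role. Of 108 further biogenesis genes, 29 fell, 79 were not called and none rose, and their median log2 fold change was -0.39. The share called lower was 26.9%, against 18.0% of all genes. By role, 3 of 11 polymerase I genes, 3 of 10 snoRNP genes, 9 of 42 small subunit genes and 14 of 45 large subunit genes fell. The count changed with the libraries in the fit, and fits without 1 library or mouse have fewer samples for every gene. The count was 17 without PDGFA 62, where 12.5% of all genes were called lower. Without PDGFA 68 it was 6 of 108, where 10.9% of all genes were, and without PDGFA 69 also 6, where 12.4% were. Without both libraries of mouse 68 it was 7, where 7.82% were, and without both of mouse 69 it was 6, where 12.2% were. Apart from the fit without PDGFA 62, these are smaller shares than among all genes. Further, 4 genes were called higher without EF 69 and 1 without EF 62.

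Taf1d, a subunit of the polymerase I selectivity factor, read 1821, 1287 and 1359 in PDGFA libraries, against 4574, 3152 and 6159 in EF libraries, a log2 fold change of -1.60 (adjusted p = 0.00254, SE 0.26). Polr1c, a subunit shared with RNA polymerase III, read 1015, 1034 and 1024 in PDGFA libraries, against 1436, 1440.0 and 1681 in EF libraries, a log2 fold change of -0.56 (adjusted p = 0.013, SE 0.13). Shq1, the chaperone of newly made dyskerin, read 145, 146 and 127 in PDGFA libraries, against 316, 293 and 586 in EF libraries, a log2 fold change of -1.44 (adjusted p = 0.00807, SE 0.30). The chaperone and the enzyme it serves, Dkc1, thus both fell. Pih1d1, of the complex that assembles snoRNPs, read 766, 836 and 827 in PDGFA libraries, against 1037, 1338 and 1556 in EF libraries, a log2 fold change of -0.68 (adjusted p = 0.0208, SE 0.18). Wdr36, of the early small subunit assembly, read 1232, 1113 and 993 in PDGFA libraries, against 2067, 1884 and 2667 in EF libraries, a log2 fold change of -0.98 (adjusted p = 0.00382, SE 0.17). Lyar, a nucleolar protein, read 359, 264 and 223 in PDGFA libraries, against 578, 735 and 1695 in EF libraries, a log2 fold change of -1.69 (adjusted p = 0.0134, SE 0.40). Lyar had its highest value in EF 69, far over the other EF libraries. Ppan read 1213, 1015 and 893 in PDGFA libraries, against 1955, 1834 and 3052 in EF libraries, a log2 fold change of -1.10 (adjusted p = 0.00721, SE 0.23), and acts in the large subunit, as does Rrp15. Rrp15 read 489.7, 389.6 and 357 in PDGFA libraries, against 761, 678 and 1106 in EF libraries, a log2 fold change of -1.02 (adjusted p = 0.0115, SE 0.23). Calls were lost for Polr1c without PDGFA 62 or PDGFA 68 (adjusted p 0.0581 to 0.067), for Pih1d1 without EF 68, PDGFA 62, PDGFA 68 or PDGFA 69 (adjusted p 0.0559 to 0.0793), for Lyar without PDGFA 69 (adjusted p 0.0549) and for Rrp15 without PDGFA 68 (adjusted p 0.0509).

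Transcripts for the proteins of the ribosome itself were measured as well. Of 79 cytosolic ribosomal protein genes, 40 fell, 39 were not called and none rose, and all 79 log2 fold changes were below 0, from -1.01 to -0.0042 with a median of -0.50. The share called lower was 50.6%, against 18.0% of all genes. With the mouse as a block 21 fell, where 15.4% of all genes did. Without PDGFA 62, 18 fell, where 12.5% of all genes did, without PDGFA 68, 11 fell, where 10.9% did, and without PDGFA 69, 13 fell, where 12.4% did. Without both libraries of mouse 68, 5 of 79 fell, where 7.82% of all genes did. Without both libraries of mouse 69, 10 fell, where 12.2% did. The share was thus under that of all genes without mouse 68 and near it without mouse 69. Rpl12 read 3424, 3253 and 3019 in PDGFA libraries, against 5996, 5471 and 8328 in EF libraries, a log2 fold change of -1.01 (adjusted p = 0.00389, SE 0.18). Rpl23a read 3130.1, 3209 and 3066 in PDGFA libraries, against 5212, 5488 and 7362 in EF libraries, a log2 fold change of -0.92 (adjusted p = 0.00343, SE 0.16). The median SD of these genes was 0.083 in PDGFA and 0.24 in EF on the log2 scale, narrower in both media than that of the 46 biogenesis genes. Ribosomal protein genes have many near-identical processed copies in the genome, so single values are uncertain.

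**Figure D5:**
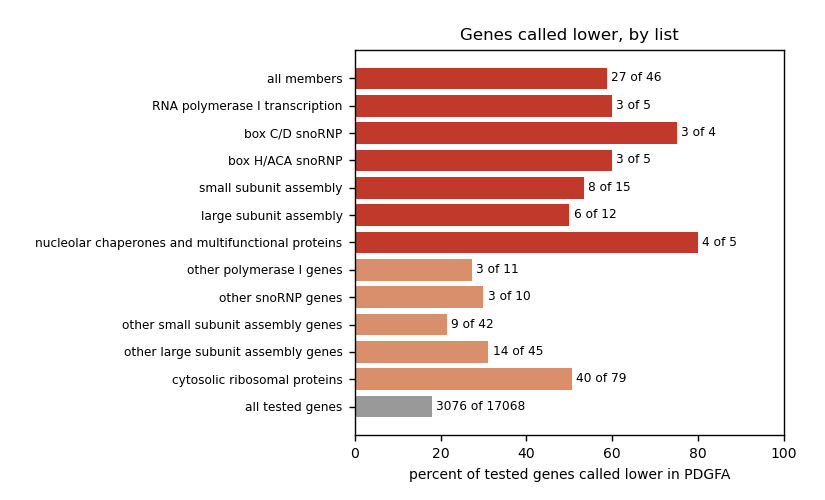
Share of tested genes called lower in PDGFA (limma, adjusted p under 0.05), for the 46 genes and their role groups (dark red), further biogenesis genes and ribosomal proteins (light red) and all tested genes (grey); labels give the counts. The 46 genes stand at 27 of 46, ribosomal proteins at 40 of 79 and all genes at 3076 of 17068.

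Markers of dividing cells were lower in PDGFA as well. All 12 of the list fell, at a median of -6.46 on the log2 scale, and their summed level was 2555 to 2932 normalized counts in PDGFA and 53614 to 127893 in EF. Within EF that sum was 53614, 87415 and 127893 for mice 62, 68 and 69, so EF 69 was highest for these markers as for the biogenesis genes. The order of EF 62 and EF 68 was the reverse, as the 46 genes summed to 120340 in EF 62 and 116372 in EF 68. Within PDGFA it was 2555, 2793 and 2932, so PDGFA 69 was highest for these markers and lowest for the biogenesis genes. The fall of the biogenesis genes, at a median of -0.75, was far smaller than that of the markers. The part of these markers in the result was not tested.

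Markers of other cell types moved too. Of 8 neural progenitor markers, 4 fell and 3 rose, with sums of 53920 to 56963 in PDGFA and 78026 to 188277 in EF, so progenitor markers were read in both media. All 8 markers of maturing oligodendrocytes rose, with sums of 344901 to 418006 in PDGFA and 2710.2 to 4399 in EF; Mog was at 0 in all EF libraries. Of 8 astrocyte markers 5 rose and none fell, with sums of 173435 to 282353 in PDGFA and 48246 to 87037 in EF. Of 7 markers of oligodendrocyte precursors 3 rose and 3 fell, with sums of 125061 to 199915 in PDGFA and 79136 to 146434 in EF. Of 7 tested neuron markers 2 rose, with list sums of 29805 to 39828 in PDGFA and 25554 to 30909 in EF. Of 6 microglia markers 2 are in the table, with sums of 5.73 to 8.96 in PDGFA and 11.5 to 44.7 in EF, and Csf1r at 0 in EF 62 and EF 69; P2ry12, the 1 tested, fell. Of 5 endothelial markers 3 are in the table, with sums of 424.4 to 684.5 in PDGFA and 82.4 to 126.1 in EF; Kdr rose and Pecam1 fell. The part of these markers in the result was not tested.

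Recovered reads ran from 34812800 to 39601349 in the PDGFA libraries and from 27270246 to 30151469 in the EF libraries. At this depth each of the 46 genes had at least 303.7 normalized counts in every library, and the spread between mice was part of every interval.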

How the data were processed

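PolyA RNA was sequenced from 6 cultures, the PDGFA and EF media for each of 3 p53-null mice, with a kit that does not mark strand. Per the submitters' processing notes, FastQC, STAR and DESeq2 were used with mm10; neither annotation release nor counting settings were given in the sources used here. The authors deposited normalized counts, a signal that divides reads by a size factor per library. Dividing out those steps gave whole reads for 100% of values within 0.001, and all values below rest on the deposited values unless reads are named. Genes with a mean of at least 10 (17068 of 22057) were tested with limma 3.58.1 in R 4.3.3 on log2(normalized count + 1). The variance had a trend, Benjamini-Hochberg adjustment ran over all 17068, and genes were called at adjusted p under 0.05. The fit was also run on simulated data, which gave each gene the same spread in both groups and no mouse effect. The groups here differ in spread, so no result above rests on that simulation. Both directions were tested. The mouse numbers in the labels pair the libraries, as cells of 1 mouse went into both media; deviations from the group means correlated at -0.091, 0.110 and -0.110 for mice 62, 68 and 69. The main fit has no block, and the fit with the mouse as a block is an alternative.

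Alternatives were edgeR 4.0.16 and DESeq2 1.42.0 on recovered reads, TMM and upper-quartile scaling, other pseudocounts and filters, and leaving out each library or mouse. The 46 genes and all lists were chosen with earlier results of these data known. Every one of the 46 is named. Every one of the other pathway lists is shown by up to 2 called genes with the smallest p in each direction. Coordinates and exon lengths are from GENCODE M21 on GRCm38, and promoter sequences from RefSeq on GRCm38.p6. Intervals cover the spread between these libraries.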

Additional observations from a re-analysis of the deposited data

How the results depend on the processing

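Over 18 alternatives, the 46 genes gave 674 unchanged outcomes, 121 lost calls, 27 gained calls and 6 changes of sign, and the median log2 fold change of the 46 was below 0 in all 18. The signs that changed belonged to genes that were not called: Ubtf was 0.087 without EF 69, 0.022 without PDGFA 69 and 0.16 without mouse 69, with -0.13 to 0.087 over single libraries left out; Rrn3 was 0.013 without mouse 69; and Pes1 was 0.12 without EF 69 and 0.18 without mouse 69, with -0.36 to 0.12 over single libraries. Leaving out 1 library gave 7 to 29 of the 46 genes called lower and 0 to 0 higher, with a median of -0.88 to -0.53; 1855 to 3848 of all genes lower and 2306 to 4213 higher; 6 to 35 other biogenesis genes lower and 0 to 4 higher; and 11 to 52 ribosomal protein genes lower. By role it gave 2 to 3 polymerase I genes, 0 to 3 box C/D genes, 0 to 4 box H/ACA genes, 3 to 10 small subunit genes, 1 to 8 large subunit genes and 1 to 4 chaperones. Without mouse 68, 8 of the 46 genes, 1335 of all genes lower and 1945 higher, 7 other biogenesis genes, 5 ribosomal protein genes, 1 box C/D, 0 box H/ACA, 3 small subunit, 1 large subunit and 1 chaperone gene were called. Without mouse 69 the counts were 8 of the 46, 6 other biogenesis genes lower and 2 higher, 10 ribosomal protein genes, 0 box C/D, 1 box H/ACA, 3 small subunit, 1 large subunit and 1 chaperone gene. Without mouse 62, 26 ribosomal protein genes fell. With the mouse as a block, 18 of the 46, 21 ribosomal protein genes, 3 large subunit genes and 2 chaperones were called. Upper-quartile scaling called 1 other biogenesis gene higher. Fits without 1 library or mouse have fewer samples, and the cause of other changes was not tested. TMM and upper-quartile scaling moved the median of all genes by 0.00195 and 0.0168 on the log2 scale.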
